A study of Mus musculus with 6 samples.

Results

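Inhibitory immune checkpoints were represented here by 10 genes, *Pdcd1*, *Ctla4*, *Btla*, *Tigit*, *Lag3*, *Havcr2*, *Cd160*, *Cd244*, *Entpd1* and *Cd200*. They were chosen by gene symbol, and all 10 were among the 24223 genes counted and passed the filter on low counts that left 13607 genes for testing. Of these, 8 encode receptors, whereas *Entpd1* encodes the ecto-enzyme CD39 and *Cd200* encodes a surface ligand. RNA-Seq was performed on 6 libraries, 2 biological replicates each of non-activated Naive CD4+ T cells (Naive), of Th17 and of Th1. Naive cells were CD4+CD44- cells, purified with a CD4+CD62L+ kit from the pooled lymph nodes and spleens of C57BL/6 mice aged 1 to 2 months and sequenced without culture. Th17 and Th1 were derived from such cells by 5 days of culture with stimulation through CD3 and CD28. The stimulus was bound anti-CD3 with soluble anti-CD28, or CD3/CD28 Dynabeads, and the methods do not say which culture received which. The Th17 condition added TGF-β, IL-6, IL-1β and IL-23 with antibodies that block IL-4 and IFN-γ, and the Th1 condition added IL-12 and IL-2 with an antibody that blocks IL-4. Each library is therefore a bulk population, and every difference from Naive includes activation and culture besides polarization. Th17 and Th1 share their time in culture and stimulation through CD3 and CD28, but whether the form of the stimulus was the same is not stated.

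T cells carry a set of surface proteins that restrain signalling from the T cell receptor and from CD28. CTLA-4 competes with CD28 for CD80 and CD86, PD-1 and BTLA recruit phosphatases to the activated receptor complex, and LAG-3, TIM-3 and TIGIT bind ligands on antigen-presenting and other cells. CD39 acts outside the cell, where it degrades ATP to AMP, which CD73 then converts into adenosine. Many of these genes are induced by activation itself, so their transcripts mark recent stimulation as well as restraint, and several are also expressed in regulatory T cells, NK cells or myeloid cells.

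Expression is given as CPM, counts scaled to a common library total with TMM factors. The libraries held 17742158 to 69080017 counts, and replicate 1 was the deeper library in each of the 3 cell types. A gene was called when edgeR's quasi-likelihood test gave a Benjamini-Hochberg adjusted p-value under 0.01 with an absolute log2 fold change above 1. The cytokine genes were highest under their own labels, with *Il17a* at 526 and 691 CPM in the Th17 libraries and at most 0.541 CPM in the others, and *Ifng* at 177 and 157 CPM in the Th1 libraries against 4.55 CPM in both Naive libraries. *Ifng* was also at 64.6 and 48.7 CPM in Th17, where it was called higher than in Naive (log2 fold change 3.64, edgeR adjusted p-value 7.7e-05) and lower than in Th1. *Cd4* was between 422 and 740 CPM in all 6. Markers of other cells were not silent. The summed CPM of 10 myeloid genes was 2538 and 3178 in the Th17 libraries against 30.3 to 61.3 in the others, of which *S100a8* and *S100a9* made up most.

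*Ctla4*, *Entpd1*, *Lag3* and *Cd160* were the members with a called change. To show where their transcription starts, the 250 bases before a RefSeq start site are printed for 3 of them (GRCm38.p6). *Cd160* has a second such window, before its upstream start at chr3:96829352-96829601, which holds no match and is not shown. *Lag3* was not matched to a promoter entry. Capitals mark every match to the core motifs of NFAT (GGAAA), AP-1 (TGANTCA), STAT (TTCNNNGAA) and T-box factors (AGGTGTGA and AGGTGTTA) on either strand, and a capital TTTCC is a GGAAA on the opposite strand.
Ctla4, chr1:60908775-60909024, plus strand: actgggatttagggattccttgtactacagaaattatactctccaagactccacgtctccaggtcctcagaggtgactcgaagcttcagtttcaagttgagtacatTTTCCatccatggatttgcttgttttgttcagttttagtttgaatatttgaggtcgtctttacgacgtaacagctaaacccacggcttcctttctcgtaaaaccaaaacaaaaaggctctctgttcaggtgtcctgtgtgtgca
Entpd1, upstream start, chr19:40612116-40612365, plus strand: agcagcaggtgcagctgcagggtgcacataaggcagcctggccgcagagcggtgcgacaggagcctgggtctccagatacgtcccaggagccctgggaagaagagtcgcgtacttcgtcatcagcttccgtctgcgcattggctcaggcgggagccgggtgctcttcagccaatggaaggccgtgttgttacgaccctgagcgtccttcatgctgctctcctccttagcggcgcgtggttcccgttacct
Entpd1, downstream start, chr19:40659520-40659769, plus strand: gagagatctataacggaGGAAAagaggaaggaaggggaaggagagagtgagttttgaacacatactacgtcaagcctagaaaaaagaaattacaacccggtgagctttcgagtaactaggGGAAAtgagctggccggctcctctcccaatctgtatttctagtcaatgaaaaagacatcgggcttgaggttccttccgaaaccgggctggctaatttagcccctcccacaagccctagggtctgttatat
Cd160, start inside the gene, chr3:96814522-96814771, minus strand: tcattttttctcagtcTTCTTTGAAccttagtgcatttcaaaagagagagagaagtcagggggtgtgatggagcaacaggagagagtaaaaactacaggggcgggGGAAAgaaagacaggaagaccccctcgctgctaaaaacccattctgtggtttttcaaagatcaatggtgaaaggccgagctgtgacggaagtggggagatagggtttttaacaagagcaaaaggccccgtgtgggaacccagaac
The *Ctla4* window holds a GGAAA that begins 144 bases before the start, the downstream *Entpd1* window holds a pair at 233 and 130 bases, and the *Cd160* window holds a STAT-type match at 234 bases and a GGAAA at 145 bases. The upstream *Entpd1* window holds no match. Across the 11 windows of the 9 members with an entry, GGAAA was found in 6, TGANTCA in 2 (*Havcr2* and *Cd244*) and TTCNNNGAA in 1. Among all 32851 promoter windows of this length, 55.6% held GGAAA, 6.75% held TGANTCA and 7.02% held TTCNNNGAA. The T-box letters, found in 1.12% (AGGTGTGA) and 0.393% (AGGTGTTA) of all windows, were in no member window. These are matches of letters and not measured binding sites.

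The genes lie on 6 chromosomes in GRCm38. *Ctla4* (chr1:60887000-60915832), *Pdcd1* (chr1:94038305-94052553) and *Cd244* (chr1:171559193-171609746, annotated as *Cd244a*) share chromosome 1. *Tigit* (chr16:43648867-43664146), *Btla* (chr16:45224315-45257670) and *Cd200* (chr16:45382135-45409053) share chromosome 16, where *Btla* and *Cd200* are neighbours 124.5 kb apart with no protein-coding gene between them. *Cd160* is at chr3:96798763-96829351, *Lag3* at chr6:124904361-124911705, *Havcr2* at chr11:46454935-46481255 and *Entpd1* at chr19:40612366-40741602. An antisense gene touches 2 of them. *Pdzk1* shares 68 exonic bases with *Cd160* and was at 2.72 to 6.63 CPM, and *Ly9* overlaps introns of *Cd244* without a shared exonic base and was at 97.1 to 194 CPM.

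On a scale per kb of exon, which allows genes to be ranked against each other, *Btla* was the leading member in Naive and *Ctla4* in both effector populations. In Naive, *Btla* reached 26.7 ± 8.36 CPM per kb (SD, n = 2), followed by *Tigit* (14.5 ± 2.58), *Ctla4* (14.5 ± 3.07) and *Pdcd1* (13.5 ± 2.47), which overlapped each other. *Cd200* (7.20 ± 0.719) and *Cd160* (7.04 ± 1.79) also overlapped, *Lag3* (5.07 ± 0.132) and *Entpd1* (1.20 ± 0.111) came next, and *Cd244* (0.186 ± 0.0769) and *Havcr2* (0.123 ± 0.00616) were lowest. In Th17 the order was *Ctla4* (105.8 ± 27.4), *Btla* (32.1 ± 2.57), *Tigit* (9.98 ± 6.63), *Pdcd1* (9.22 ± 0.771), *Cd200* (7.85 ± 1.18), *Lag3* (3.52 ± 1.07), *Cd160* (2.45 ± 0.136), *Havcr2* (0.983 ± 0.479), *Entpd1* (0.933 ± 0.201) and *Cd244* (0.529 ± 0.122). *Tigit*, *Pdcd1* and *Cd200* could not be ordered there, nor could *Havcr2* and *Entpd1*. In Th1, *Ctla4* (106.8 ± 27.0) and *Btla* (35.05 ± 4.37) were followed by *Lag3* (20.9 ± 5.23), and then by *Tigit* (13.8 ± 0.173) and *Entpd1* (13.4 ± 1.48), which overlapped. *Pdcd1* (6.09 ± 2.22), *Cd200* (2.81 ± 0.252), *Cd160* (0.639 ± 0.363), *Havcr2* (0.482 ± 0.0902) and *Cd244* (0.105 ± 0.0936) closed the order, with overlap only between *Cd160* and *Havcr2*. *Lag3* and *Entpd1* thus ranked 3 and 5 in Th1, and 7 and 8 in Naive.

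**Figure D1:**
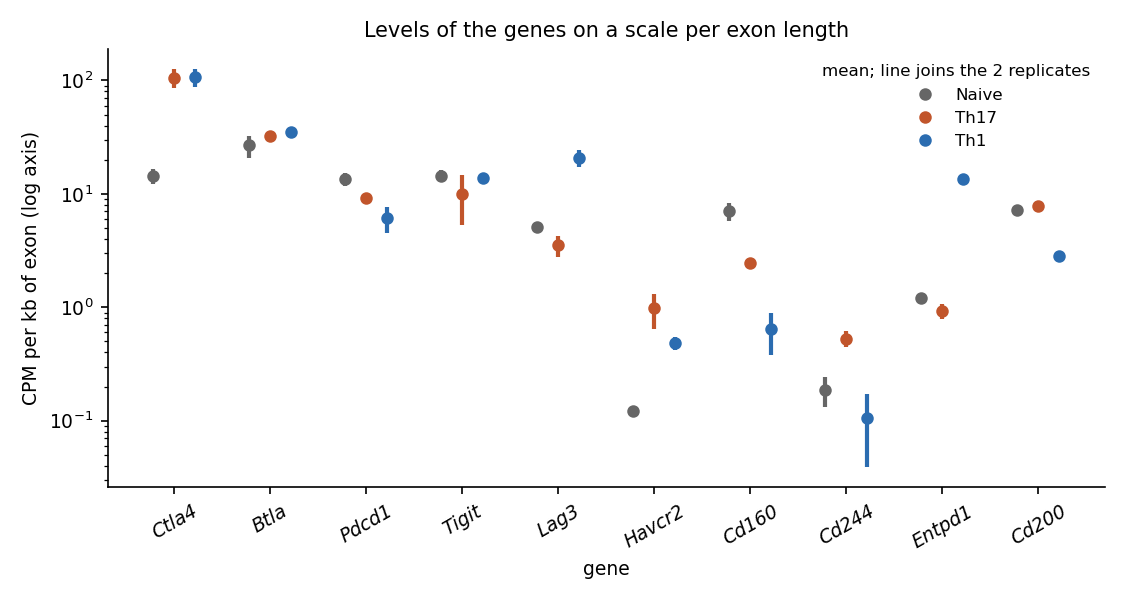
Level of each gene in CPM per kb of exon on a log axis, with dots at the mean of each cell type and a line joining its 2 replicates. *Ctla4* is the highest gene in Th17 and Th1 and *Btla* in Naive, while *Havcr2* and *Cd244* stay near or below 1 CPM per kb in every cell type.

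The summed CPM of the 10 genes was 204 and 246 in the Naive libraries, 405 and 461 in Th17 and 479.8 and 568 in Th1. *Btla* contributed 34.6% and 45.1% of this sum in the Naive libraries and *Ctla4* 14.1% and 15.8%. In Th17 *Ctla4* contributed 49.7% and 63.3%, and in Th1 42.6% and 51.6%. The sum therefore followed *Ctla4* for the most part, and in Th1 *Entpd1* added 14.4% and 14.2%.

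*Ctla4* rose in both effector populations. It was at 28.7 and 38.8 CPM in the Naive libraries, at 201 and 292 CPM in Th17 and at 204 and 293 CPM in Th1. Every effector library lay above both Naive libraries, whereas Th17 and Th1 overlapped almost completely. The log2 fold change from Naive was 2.87 (SE 0.34) in Th17 and 2.88 (SE 0.34) in Th1, with adjusted p-values of 6.7e-04 and 5.1e-04 by edgeR's quasi-likelihood test with Benjamini-Hochberg adjustment. Th1 and Th17 differed by 0.01 on the log2 scale (SE 0.31), with an adjusted p-value of 0.98 in the same test. As all libraries are bulk populations, more cells with a transcript and more transcript per cell cannot be told apart, here and for every gene that follows. The 2 Naive libraries also held regulatory T cell genes, with *Foxp3* at 39.2 and 69.9 CPM against 6.94 to 19.2 CPM in the cultured libraries, and *Ikzf2* at 61.3 and 98.4 CPM against 6.51 to 14.5 CPM. The summed CPM of the 5 regulatory T cell markers ran the other way, from 171 and 297 in Naive through 345 and 563 in Th17 to 938 and 1112 in Th1, with *Il2ra*, also an activation gene, as the largest term. Their part in the level of *Ctla4* was not tested.

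*Btla*, which binds HVEM and is carried by resting lymphocytes, did not differ between the 3 cell types beyond the spread of its replicates. Its CPM was 70.7 and 111 in the Naive libraries, 115 and 103 in Th17 and 129.5 and 108.5 in Th1. The groups overlapped in all 3 comparisons, with log2 fold changes of 0.27 (SE 0.29) for Th17 and 0.39 (SE 0.29) for Th1 against Naive and 0.13 (SE 0.29) between Th1 and Th17. The edgeR adjusted p-values were 0.54, 0.41 and 0.78.

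*Pdcd1*, the gene of PD-1, was highest in the Naive libraries. It was at 29.5 and 22.7 CPM in Naive, at 18.8 and 16.7 CPM in Th17 and at 14.8 and 8.72 CPM in Th1. The 3 cell types did not overlap, but none of the differences passed the threshold. Against Naive, *Pdcd1* differed by a log2 fold change of -0.55 (SE 0.34, edgeR adjusted p-value 0.29) in Th17 and -1.14 (SE 0.35, adjusted p-value 0.0505) in Th1, and Th1 differed from Th17 by -0.59 (SE 0.35, adjusted p-value 0.26). The follicular helper T cell gene *Cxcr5* was ordered alike, at 19.2 and 25.8 CPM in Naive, 4.70 and 4.19 CPM in Th17 and 1.11 and 1.64 CPM in Th1. The summed CPM of the 4 follicular helper markers did not follow, at 56.0 and 79.9 in the Naive libraries, 82.95 and 89.5 in Th17 and 39.0 and 49.4 in Th1. Whether such cells carried the *Pdcd1* of the Naive libraries was not tested.

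*Tigit*, which competes with the activating receptor CD226 for CD155, overlapped between the 3 cell types and was uneven in Th17. Its CPM was 11.7 and 15.0 in Naive, 12.6 and 12.8 in Th1, and 13.5 and 4.86 in Th17. The Th17 replicates stood 2.77-fold apart, the widest replicate gap of any member except *Cd244* in Th1. The Th1 libraries lay within the range of the Naive libraries, and the range of the Th17 libraries spanned those of Th1 and part of that of Naive. The log2 fold changes were -0.52 (SE 0.46) for Th17 and -0.07 (SE 0.46) for Th1 against Naive and 0.46 (SE 0.46) between Th1 and Th17, with edgeR adjusted p-values of 0.45, 0.95 and 0.50.

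*Lag3*, a CD4-related receptor for MHC class II, rose in Th1 and not in Th17. Its CPM was 10.9 and 10.5 in the Naive libraries, 9.03 and 5.83 in Th17, and 36.2 and 51.8 in Th1. Both Th1 libraries lay above the other 4, and the Th17 libraries were the lowest. The log2 fold change was 2.04 (SE 0.35, adjusted p-value 0.0037) for Th1 against Naive and 2.56 (SE 0.35, adjusted p-value 0.0017) for Th1 against Th17 by edgeR with Benjamini-Hochberg adjustment. For Th17 against Naive it was -0.52 (SE 0.34), with an adjusted p-value of 0.31. The call against Naive depended on single libraries and on the scaling. With library size as the only scaling the log2 fold change was 1.78 (edgeR adjusted p-value 0.0116). Without Naive replicate 1, Naive replicate 2 or Th1 replicate 2 the log2 fold change was 2.06, 2.01 and 1.77, and the edgeR adjusted p-value became 0.0207, 0.0149 and 0.0160. The call against Th17 was lost without Th17 replicate 2, where the log2 fold change was 2.29 (edgeR adjusted p-value 0.0195).

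*Havcr2*, the gene of TIM-3, was close to the limit of detection in Naive and low everywhere. It was counted 22 and 7 times in the Naive libraries, 0.323 CPM (exact Poisson 95% interval 0.202 to 0.489) and 0.347 CPM (0.139 to 0.714). In Th17 it was at 3.60 CPM (3.15 to 4.09) and 1.75 CPM (1.19 to 2.49), and in Th1 at 1.48 CPM (1.20 to 1.81) and 1.14 CPM (0.674 to 1.80). All 4 cultured libraries were above both Naive libraries, and the Th17 libraries were above the Th1 libraries. The log2 fold change of 3.02 (SE 0.62) in Th17 against Naive was the largest of any member in that comparison, with an edgeR adjusted p-value of 0.0117 that missed the threshold. For Th1 against Naive it was 1.99 (SE 0.62, edgeR adjusted p-value 0.054) and for Th1 against Th17 -1.03 (SE 0.56, edgeR adjusted p-value 0.23). TIM-3 is also carried by myeloid cells, and the summed CPM of the myeloid list was highest in the Th17 libraries. All 10 genes of that list were detected there, *Lyz2* at 223 and 762 CPM and *Itgam* at 54.2 and 70.1 CPM. *Cd14* reached only 2.19 and 4.07 CPM, and *Csf1r*, at 5.34 and 11.7 CPM, overlapped with Naive (7.41 and 4.80 CPM). Within Th17, *Havcr2* was higher in replicate 1 and the summed myeloid CPM in replicate 2. The part of myeloid cells in the *Havcr2* difference was not tested.

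*Cd160*, a receptor for HVEM best known from NK and CD8 T cells, fell in Th1. Its CPM was 21.9 and 15.2 in the Naive libraries, 6.73 and 6.22 in Th17 and 2.37 and 1.01 in Th1. The 3 cell types did not overlap and formed a descending series from Naive through Th17 to Th1. Against Naive the log2 fold change was -3.40 (SE 0.48) in Th1, with an edgeR adjusted p-value of 0.0014, and -1.52 (SE 0.44) in Th17, with an edgeR adjusted p-value of 0.044. Between Th1 and Th17 it was -1.88 (SE 0.46, edgeR adjusted p-value 0.023). Without Th1 replicate 1, the Th1 change against Naive was -4.15, on the 16 counts of Th1 replicate 2. The NK cell list was also highest in Naive. The summed CPM of the 6 NK markers was 36.7 and 35.1 in the Naive libraries, 3.37 and 2.885 in Th17 and 12.8 and 12.1 in Th1. *Eomes*, which T cells also express, made up 17.4 and 23.3 CPM of the sums in Naive and 12.3 and 11.9 CPM in Th1. *Klrb1c* was at 17.4 and 11.2 CPM in Naive against 0.126 to 1.19 CPM in the cultured libraries, whereas *Klre1* was at 1.13 and 0.347 CPM in the Naive libraries and 0.811 and 1.02 CPM in Th17. *Klra4* and *Klra8* had no count in any library, and *Ncr1* was at most 0.748 CPM. Of the CD8 genes, *Cd8a* was at most 1.38 CPM and *Cd8b1* was at 8.58 and 11.2 CPM in Naive and 5.43 to 10.9 CPM in the cultured libraries. The part of other lymphocytes in the *Cd160* level was not tested.

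*Cd244*, the gene of the SLAM family receptor 2B4, which binds CD48, was the least abundant member in Th17 and Th1 by mean CPM and per kb. Its CPM was 1.17 (exact Poisson 95% interval 0.931 to 1.46) and 0.644 (0.343 to 1.10) in Naive, 2.16 (1.82 to 2.54) and 2.998 (2.25 to 3.92) in Th17, and 0.835 (0.627 to 1.09) and 0.190 (0.0391 to 0.554) in Th1. The last value was 3 counts. The Th17 libraries were above the other 4, and Naive and Th1 overlapped. Against Naive, the log2 fold change was 1.46 (SE 0.68, edgeR adjusted p-value 0.17) for Th17 and -0.72 (SE 0.70, edgeR adjusted p-value 0.55) for Th1. Between Th1 and Th17 it was -2.18 (SE 0.71, edgeR adjusted p-value 0.062). 2B4 is likewise carried by NK and myeloid cells. The summed CPM of the myeloid genes was also highest in the 2 Th17 libraries. Neither cell type was tested as a source of the *Cd244* counts.

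*Entpd1*, the gene of CD39, rose in Th1 by more than any other member. Its CPM was 7.12 and 6.24 in the Naive libraries, 5.997 and 4.41 in Th17, and 68.95 and 80.65 in Th1. The Th1 libraries were far above the other 4, and the Th17 libraries were the lowest. The log2 fold change was 3.48 (SE 0.32) for Th1 against Naive and 3.83 (SE 0.33) for Th1 against Th17, an 11.2-fold and a 14.3-fold difference. The edgeR adjusted p-values were 1.6e-04 and 1.7e-04. Th17 differed from Naive by -0.35 (SE 0.30), with an edgeR adjusted p-value of 0.43. Only 0.838% of the 13607 genes tested had a higher log2 fold change for Th1 against Th17 than *Entpd1*, and 2.03% had a higher one than *Lag3*.

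*Cd200*, whose product inhibits cells that bear the CD200 receptor, was lowest in Th1. Its CPM was 22.2 and 25.6 in the Naive libraries, 28.9 and 23.3 in Th17, and 8.74 and 9.92 in Th1. Both Th1 libraries were below the other 4, and Naive and Th17 overlapped. The log2 fold change was -1.36 (SE 0.30, edgeR adjusted p-value 0.0142) for Th1 against Naive and -1.49 (SE 0.30, edgeR adjusted p-value 0.0112) for Th1 against Th17, and 0.13 (SE 0.30, edgeR adjusted p-value 0.79) for Th17 against Naive. Neither Th1 difference passed the threshold of 0.01 in the main fit. The difference from Naive passed under 4 of 17 alternatives, namely DESeq2, the replicate block in DESeq2, no filter and an adjusted p-value under 0.05. The difference from Th17 passed under 6 of 17. These were the same 4, the replicate block in edgeR and library size as the only scaling (-1.71, edgeR adjusted p-value 0.00987). Its chromosomal neighbour *Btla* overlapped between the cell types in the same comparisons.

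**Figure D2:**
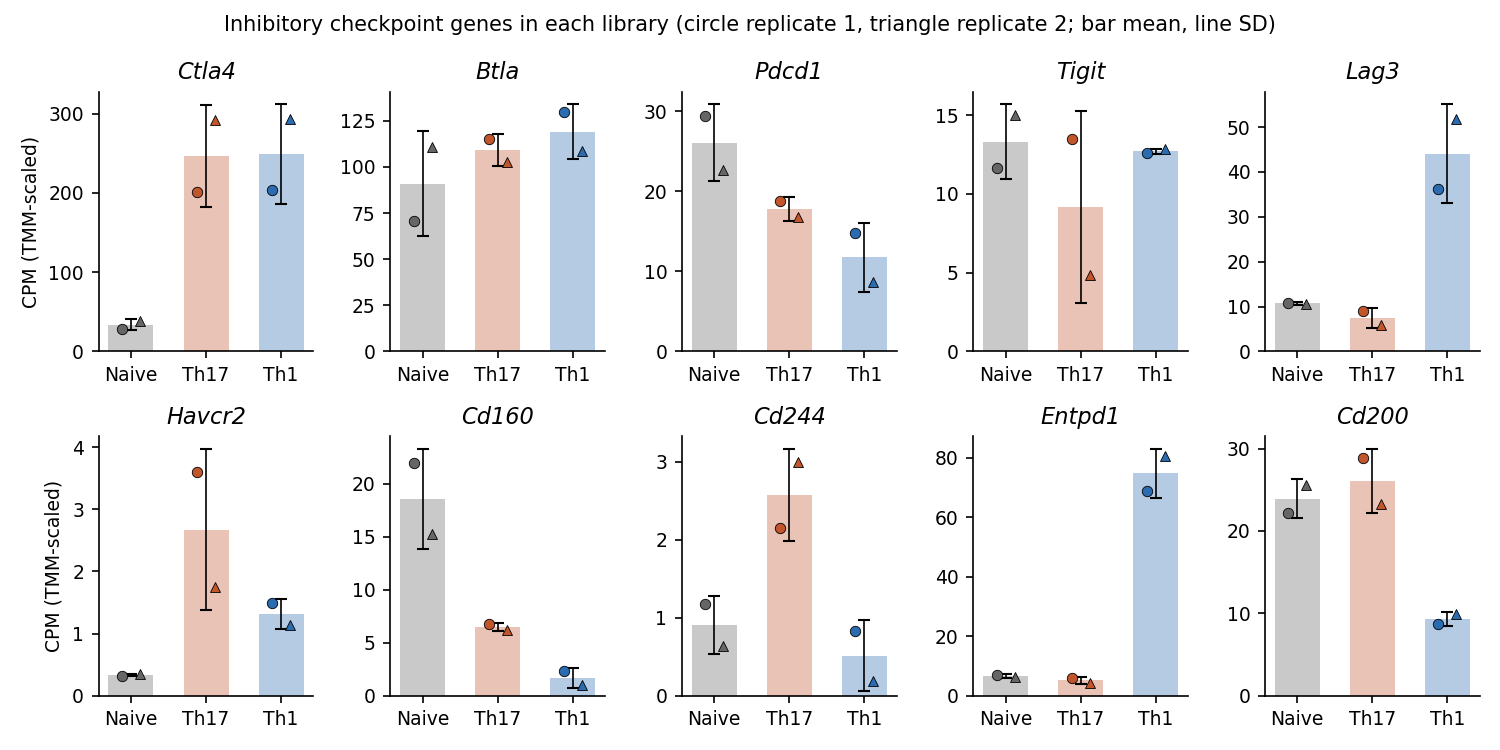
CPM of each gene in each library, with bars at the mean of the 2 replicates, lines for the SD, circles for replicate 1 and triangles for replicate 2. The *Ctla4* libraries of Th17 and Th1 sit between 201 and 293 CPM, above the Naive libraries, and *Lag3* and *Entpd1* are high in Th1 alone while *Cd160* is lowest there.

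Counted over the set, 1 of the 10 genes was called higher in Th17 than in Naive and none lower, beside 5.43% of all genes tested (4.01% higher and 1.43% lower). The libraries of the groups did not overlap for 7 genes, 3 higher and 4 lower, beside 65.5% of all genes (32.4% higher and 33.1% lower). The median log2 fold change of the set was -0.11 and that of all genes -0.02. At an unadjusted p-value under 0.05 the count was 3, beside 33.3% of all genes. The call was *Ctla4*, and the remaining genes had values on both sides of zero without a call.

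For Th1 against Naive, 3 genes were called higher (*Ctla4*, *Lag3* and *Entpd1*) and 1 lower (*Cd160*), beside 7.45% of all genes (4.64% higher and 2.81% lower). The groups did not overlap for 7 genes, 4 higher and 3 lower, beside 56.0% of all genes (27.6% higher and 28.4% lower), and 7 had an unadjusted p-value under 0.05, beside 29.9%. The set's median of 0.16 stood beside -0.02 for all genes. Both comparisons use the same Naive libraries, so they are not independent of each other.

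For Th1 against Th17, 2 genes were called higher (*Lag3* and *Entpd1*) and none lower, beside 5.53% of all genes (2.70% higher and 2.83% lower). With library size as the only scaling, 203 genes were called higher and 352 lower, compared with 367 and 385 after TMM. The groups did not overlap for 7 genes, 2 higher and 5 lower, beside 66.6% of all genes (31.5% higher and 35.1% lower), and 5 had an unadjusted p-value under 0.05, beside 33.8%. The median log2 fold change was -0.29 for the set and -0.03 for all genes. The 3 genes whose Th1 and Th17 libraries overlapped were *Ctla4*, *Btla* and *Tigit*.

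**Figure D3:**
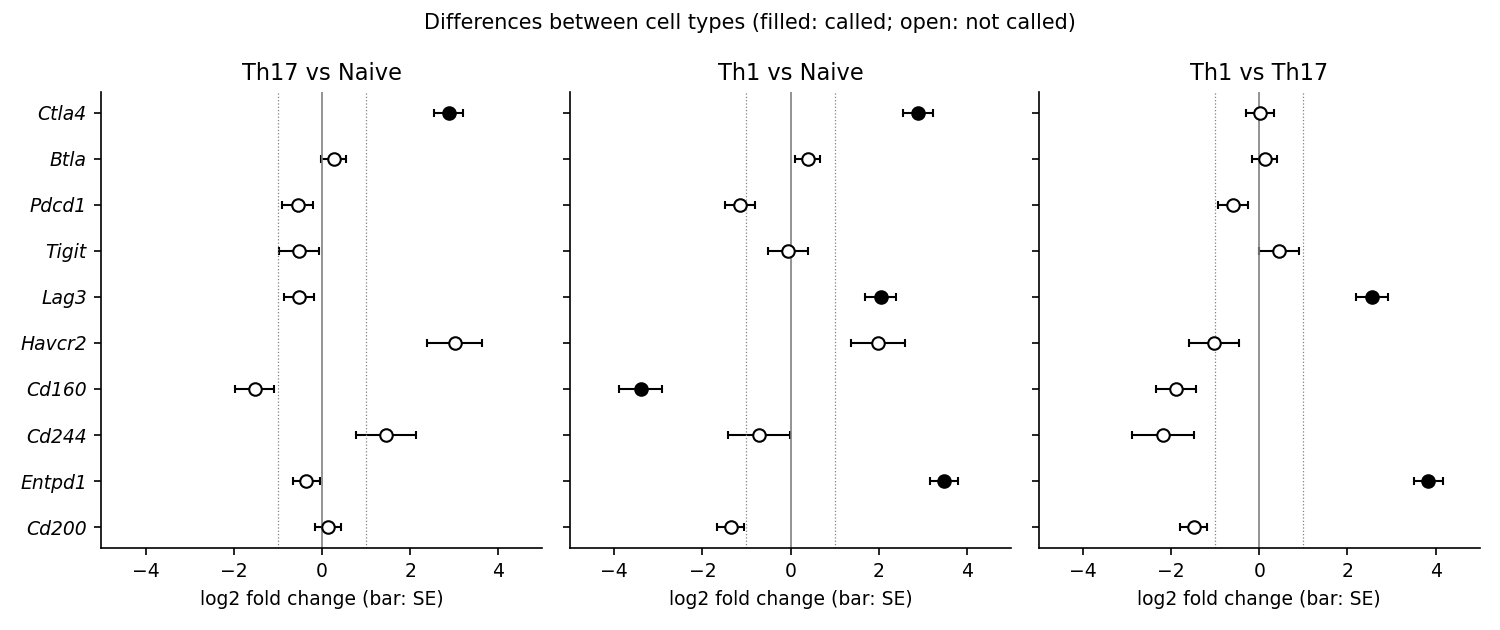
Log2 fold change of each gene in the 3 comparisons, with bars for the SE, filled dots for called genes and dotted lines at -1 and 1. *Ctla4* is filled in both comparisons with Naive, *Lag3* and *Entpd1* in both comparisons of Th1, and *Cd160* in Th1 against Naive.

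The ligands and counter-receptors of the set are mostly thought of on antigen-presenting cells, but several were transcribed in these populations. Of 15 listed genes, 14 were tested, and *Fgl1*, a ligand of LAG-3, had no count in any library. In Th17, *Cd80* and *Lgals3* rose (2 of 14, none lower). In Th1, *Lgals3* rose (1 of 14, none lower). None was called between Th1 and Th17, where DESeq2 called 1. There 5 had an unadjusted edgeR p-value under 0.05, beside 33.8% of all genes. Over all genes tested, 5.43% were called in Th17 against Naive, 7.45% in Th1 against Naive and 5.53% in Th1 against Th17. The list medians were 0.45, 0.41 and -0.09, beside -0.02, -0.02 and -0.03 for all genes. *Cd80*, a ligand of CTLA-4 and CD28, was at 0.572 and 0.792 CPM in Naive, 5.003 and 4.24 CPM in Th17 and 4.59 and 2.65 CPM in Th1, with a log2 fold change of 2.79 (SE 0.52, edgeR adjusted p-value 0.0076) in Th17. *Lgals3*, the gene of galectin-3, was at 14.0 and 5.198 CPM in Naive, 89.2 and 189 CPM in Th17 and 451 and 360 CPM in Th1. Its log2 fold change was 3.84 (SE 0.52, edgeR adjusted p-value 0.0014) in Th17 and 5.38 (SE 0.56, edgeR adjusted p-value 3.0e-04) in Th1. The call of *Cd80* was lost without either Naive or either Th17 library (edgeR adjusted p-value up to 0.0468). The fold of *Lgals3* moved with Naive replicate 1, without which the log2 values were 4.74 and 6.28, and with Th17 replicate 2, without which the Th17 value was 3.20. Both genes are also expressed by myeloid cells, whose part was not tested. *Tnfrsf14*, the HVEM gene bound by BTLA and CD160, was at 25.6 to 47.0 CPM and *Cd48*, the ligand gene of 2B4, at 69.6 to 129 CPM over the 6 libraries.

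Among 16 genes of proteins that signal from or transport the receptors, including the phosphatases *Ptpn6*, *Ptpn11* and *Inpp5d*, 1 was called lower in Th17 than in Naive (*Trat1*), none was called in Th1 against Naive, and 1 was higher in Th1 than in Th17 (*Fyn*). The medians were -0.31, 0.01 and 0.34. *Trat1*, an adaptor of the T cell receptor that also carries CTLA-4 to the surface, was at 45.9 and 65.05 CPM in the Naive libraries and 12.5 and 15.2 CPM in Th17 (log2 fold change -2.00, SE 0.35, edgeR adjusted p-value 0.0052). *Fyn*, a kinase that acts with SAP below SLAM family receptors, was at 236 and 197 CPM in Th17 and 734 and 1029 CPM in Th1 (log2 fold change 2.02, SE 0.32, edgeR adjusted p-value 0.0034). *Trat1* lost its call without Naive replicate 2 or either Th17 library (edgeR adjusted p-value up to 0.0507), and *Fyn* without either Th17 library or Th1 replicate 2 (edgeR adjusted p-value up to 0.0404). In Th1 against Naive, 4 of the 16 had an unadjusted edgeR p-value under 0.05, beside 29.9% of all genes, and DESeq2 called 1.

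Of 6 activating counterparts that share ligands or a family with the set, *Icos* rose in both effector populations and *Tnfsf14* fell in Th1. *Icos*, a CD28 family costimulator, was at 56.0 and 70.6 CPM in Naive, 262 and 214 CPM in Th17 and 451 and 330 CPM in Th1. Its log2 fold change was 1.91 in Th17 (SE 0.30, edgeR adjusted p-value 0.0028) and 2.63 in Th1 (SE 0.30, edgeR adjusted p-value 5.1e-04). *Tnfsf14*, the gene of the HVEM ligand LIGHT, was at 22.2 and 19.7 CPM in Naive, 22.2 and 20.7 CPM in Th17 and 4.36 and 2.72 CPM in Th1. It fell by 2.54 on the log2 scale against Naive (edgeR adjusted p-value 0.0014) and by 2.58 against Th17 (edgeR adjusted p-value 0.0017). The counts were 1 higher and none lower in Th17, 1 higher and 1 lower in Th1 against Naive, and 1 lower in Th1 against Th17. The shares of all genes called were 5.43%, 7.45% and 5.53%. The medians were -0.07, -0.27 and 0.52. Among the HVEM binders, *Tnfsf14* and *Cd160* were thus both lowest in Th1, while *Btla* overlapped between the cell types. *Icos* lost its Th17 call without Naive replicate 1 or Th17 replicate 1 (edgeR adjusted p-value up to 0.0210), and *Tnfsf14* its call against Th17 without Th17 replicate 1 (edgeR adjusted p-value 0.0128).

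The 7 further genes of the adenosine pathway, in which CD39 acts first, gave 2 higher and none lower in Th17, 2 higher and 1 lower in Th1 against Naive, and 1 higher in Th1 against Th17. *Adora2a*, the gene of the adenosine receptor that restrains T cells, was at 39.0 and 53.2 CPM before culture, 25.8 and 20.8 CPM in Th17 and 109 and 177 CPM in Th1. It rose in Th1 by a log2 fold change of 1.63 against Naive (SE 0.32, edgeR adjusted p-value 0.0070) and 2.61 against Th17 (SE 0.33, edgeR adjusted p-value 0.0010). *Adora2b*, the gene of a low-affinity adenosine receptor, was nearly undetected in Naive (12 and 1 counts) and reached 4.45 and 6.62 CPM in Th17 and 2.34 and 0.948 CPM in Th1, log2 fold changes of 5.34 (SE 0.75) and 3.64 (SE 0.72) with edgeR adjusted p-values of 0.0017 and 0.0079. *Dpp4*, whose product CD26 binds adenosine deaminase, rose in Th17 (log2 fold change 1.39, edgeR adjusted p-value 0.0081). *Adk*, the gene of adenosine kinase, was at 65.7 and 35.8 CPM in the Naive libraries and 11.8 and 11.9 CPM in Th1 (log2 fold change -2.10, edgeR adjusted p-value 0.0043). *Nt5e*, the gene of CD73, which acts after CD39, was at 39.6 and 49.7 CPM in Naive, 39.8 and 52.7 CPM in Th17 and 25.5 and 36.0 CPM in Th1 and was not called. The counts of this list stood beside 5.43%, 7.45% and 5.53% of all genes called in the 3 comparisons. The medians were -0.34, 0.43 and -0.57.

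Of these calls, *Adora2a* against Th17 and *Adora2b* in Th17 held without each library in turn, although *Adora2b* in Th17 moved to 6.70 without Naive replicate 1. *Adora2a* lost its call against Naive without Naive replicate 1, Naive replicate 2, Th17 replicate 1 or Th1 replicate 2 (edgeR adjusted p-value up to 0.0484). *Adora2b* lost its Th1 call without any library but Th1 replicate 2 (edgeR adjusted p-value up to 0.0477, with a log2 fold change of 2.86 without Th1 replicate 1 and 5.004 without Naive replicate 1). *Dpp4* lost its call without any library but Th1 replicate 1 (edgeR adjusted p-value up to 0.0507), and *Adk* without Naive replicate 1 or either Th1 library (edgeR adjusted p-value up to 0.0241).

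Transcription factors known to act on checkpoint genes moved in both directions. Of 18 tested, 2 were called higher and 4 lower in Th17 than in Naive. In Th1, 4 were higher and 4 lower than in Naive, and 3 higher and 1 lower than in Th17. Beside these counts, 5.43%, 7.45% and 5.53% of all genes were called in the 3 comparisons. The list medians were -0.02, 0.13 and 0.23. *Nfil3*, a factor linked to TIM-3 induction, rose in Th17 (log2 fold change 2.80, edgeR adjusted p-value 6.8e-04) and Th1 (3.30, edgeR adjusted p-value 2.7e-04), from 4.62 and 4.26 CPM in Naive to 37.4 and 24.5 CPM in Th17 and 45.6 and 42.0 CPM in Th1. *Batf*, an AP-1 family partner in activated T cells, rose in Th17 (2.00, edgeR adjusted p-value 0.0013) and in Th1 (1.31, edgeR adjusted p-value 0.0079), and *Prdm1*, the gene of Blimp-1, in Th1 (2.25, edgeR adjusted p-value 0.0091). *Tox*, a factor of exhausted T cells, fell in both, from 41.6 and 65.1 CPM in Naive to 2.91 and 3.17 CPM in Th17 and 3.08 and 4.99 CPM in Th1, with log2 fold changes of -4.14 and -3.75 (edgeR adjusted p-values 2.5e-04 and 3.2e-04). Its relative *Tox2* fell in Th1, with log2 fold changes of -4.30 against Naive and -5.29 against Th17 (edgeR adjusted p-values 7.0e-04 and 4.3e-04). *Eomes* and *Tbx21*, T-box factors, were lower in Th17 than in Naive (-4.44 and -2.57) and higher in Th1 than in Th17 (3.70 and 5.31), and *Tbx21* was higher in Th1 than in Naive (2.75). The 5 edgeR adjusted p-values were at most 8.5e-04. *Nfatc1* was lower in Th17 than in Naive (-1.67, edgeR adjusted p-value 0.0098) and higher in Th1 than in Th17 (1.77, edgeR adjusted p-value 0.0075), and *Nr4a3* (-3.93, edgeR adjusted p-value 0.0032) and *Foxp3* (-2.45, edgeR adjusted p-value 0.0044) fell in Th1. Leaving out a library ended the calls of *Nfatc1*, *Nr4a3*, *Foxp3*, *Prdm1* and, in Th1, *Batf*, and moved *Tox2* against Th17 to -4.69 without Th17 replicate 1.

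Single libraries on which these calls rested were any but Naive replicate 1 for *Nfatc1* in Th17 (edgeR adjusted p-value up to 0.0909), any Th17 or Th1 library for *Nfatc1* between Th1 and Th17 (up to 0.0742), either Th1 library for *Nr4a3* (up to 0.0164), Naive replicate 2 or Th1 replicate 1 for *Foxp3* (up to 0.0256), any Naive or Th1 library for *Prdm1* (up to 0.0553) and any of the 6 for *Batf* in Th1 (up to 0.0539). *Nr4a3* also moved to -3.31 without Naive replicate 2. The values of *Tox*, *Nfil3*, *Eomes*, *Tbx21*, *Tox2* and, in Th17, *Batf* stayed past the threshold without each library in turn.

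Of 12 other inhibitory receptors, 1 was higher and 1 lower in Th17 than in Naive. In Th1, 1 was higher and 2 lower than in Naive, and 2 were lower than in Th17. The shares of all genes called were 5.43%, 7.45% and 5.53%. The list medians were 0.15, -0.11 and -0.34. *Lilrb4*, the gene of gp49B, was at 0.895 and 0.743 CPM in Naive, 115 and 151 CPM in Th17 and 128 and 83.4 CPM in Th1. Its log2 fold changes of 7.31 (SE 0.40) and 6.98 (SE 0.39) exceeded those of every member (edgeR adjusted p-values 3.0e-05 and 1.6e-05). It has a near-identical neighbouring copy, so that the division of reads between the copies is uncertain. *Klrg1* fell in both populations, from 5.68 and 2.87 CPM in Naive to 0.306 and 0.452 CPM in Th17 and 0.572 and 0.569 CPM in Th1 (-3.55 and -2.91, edgeR adjusted p-values 0.0051 and 0.0089). *Sit1*, an inhibitory adaptor, fell in Th1 against Naive (-1.70, edgeR adjusted p-value 0.0032) and against Th17 (-1.62, edgeR adjusted p-value 0.0050), and *Cd300a* was lower in Th1 than in Th17 (-4.50, edgeR adjusted p-value 0.0012). *Lilrb4* and *Cd300a* are also myeloid genes, and the Th17 libraries also held the myeloid genes given above. The summed myeloid CPM in Th1 was 35.1 and 39.4. The part of myeloid cells in the levels of *Lilrb4* and *Cd300a* was not tested. Without Naive replicate 1 or either Th17 library *Klrg1* lost its Th17 call (edgeR adjusted p-value up to 0.0596, with -2.96 without Naive replicate 1), and its Th1 call without any library but Naive replicate 2 (up to 0.0751). *Sit1* lost its calls without either Th1 library (up to 0.0332 against Naive) and, against Th17, without either Th17 or either Th1 library (up to 0.04997).

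Of 7 activation markers, 2 rose in Th17 (*Il2ra* and *Tnfrsf9*), 3 in Th1 against Naive (*Il2ra*, *Tnfrsf4* and *Tnfrsf18*) and 2 in Th1 against Th17 (*Tnfrsf4* and *Tnfrsf18*). None fell, and the medians were 0.35, 2.14 and 1.23. Among all genes tested, 5.43%, 7.45% and 5.53% were called in the 3 comparisons. *Il2ra*, the high-affinity IL-2 receptor chain, was at 42.3 and 71.7 CPM in Naive, 493 and 302 CPM in Th17 and 1034 and 831 CPM in Th1, log2 fold changes of 2.80 (edgeR adjusted p-value 0.0015) and 4.03 (edgeR adjusted p-value 2.6e-04). IL-2 was a component of the Th1 culture. *Tnfrsf4* and *Tnfrsf18*, the OX40 and GITR genes, were 1.69 and 1.79 higher on the log2 scale in Th1 than in Th17 (edgeR adjusted p-values 0.0034 and 0.0024) and 2.45 and 2.14 higher than in Naive (edgeR adjusted p-values 4.6e-04 and 7.7e-04). *Tnfrsf9* rose in Th17 by 1.44 (edgeR adjusted p-value 0.0061). The differences of *Tnfrsf4* and *Tnfrsf18* from Th17 and of *Tnfrsf9* from Naive were lost without either Th17 library (edgeR adjusted p-value up to 0.0440, 0.0266 and 0.0490). *Tnfrsf4* was also lost without either Th1 library, *Tnfrsf18* without Th1 replicate 2 and *Tnfrsf9* without either Naive library. *Cd44* (73.6 to 102 CPM) was among the 4 activation markers not called in Th1 against Naive.

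**Figure D4:**
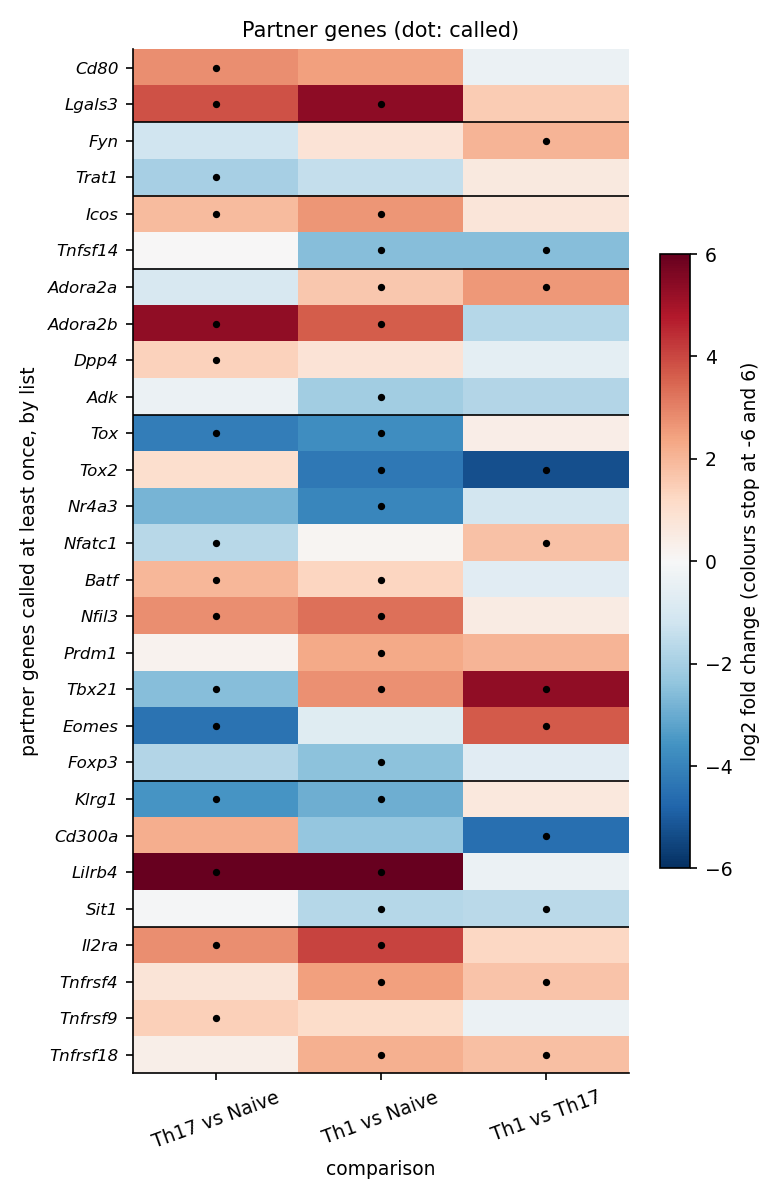
Log2 fold change in the 3 comparisons for the 28 partner genes called at least once, ordered by list (ligands, signalling, activating counterparts, adenosine, transcription factors, other inhibitory receptors, activation markers), with a dot on each called value and colours that stop at -6 and 6. *Lilrb4* (7.31 and 6.98) runs beyond the colour scale, and *Tbx21* and *Tox2* give the strongest opposed values between Th1 and Th17.

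The genes whose profile over the 6 libraries lay closest to each called member were found by the root mean square distance of centred log2 CPM, given as a description. For *Ctla4* they were *Susd3* (0.20), *Pkd1l2* (0.21) and *Gpr171* (0.24). For *Lag3* they were *C1qtnf6* (0.12), *Tbc1d9b* (0.16) and *Man1a* (0.22). For *Entpd1* they were *Gm5105* (0.27), *Xdh* (0.27) and *4930428O21Rik* (0.29), and for *Cd160* they were *Zfp704* (0.12), *Nrg2* (0.27) and *Epha4* (0.29). No member was among the closest genes of another. Within the set the closest pair was *Pdcd1* and *Cd200* (0.48) and the next *Btla* and *Tigit* (0.57), whereas *Lag3* and *Entpd1*, both called in Th1, were 0.66 apart and *Cd160* and *Entpd1* 3.10 apart. Libraries of one cell type share a population, so the 6 points are not independent.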

How the data were processed

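RNA-Seq libraries (Smart-seq2 cDNA, TruSeq preparation) of 2 biological replicates each of Naive, Th17 and Th1 were analysed. The deposited values are raw read counts per gene symbol, 1 set per library. Per the submitters' processing notes and the methods, the authors aligned reads to mm10 with HISAT2 (2.2.1) and counted them with HTSeq (0.13.5). The methods name default HTSeq parameters and removal of duplicates, whereas the supplementary code sets the reverse-stranded option and shows no removal step, so it is uncertain how antisense neighbours and amplified copies affected the counts. StringTie and DESeq2 (1.34.0) are also named in the notes.

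The tools were edgeR 4.0.16 and limma 3.58.1 under R 4.3.3, with DESeq2 1.42.0 as an alternative. Genes passing filterByExpr by cell type (13607 of 24223) were scaled by TMM (factors 0.862 to 1.09) and fitted together in 1 model of cell type over the 6 libraries. Calls needed an adjusted p-value (Benjamini-Hochberg) under 0.01 and a log2 fold change beyond -1 or 1. CPM are TMM-scaled, log2 CPM used a prior count of 2, and SE was derived from the F statistic. A library with 3 counts or fewer was at the floor (0.0440 to 0.190 CPM). Exact Poisson 95% intervals are computed from the count in 1 library and cover counting error only. Reads carry no molecular identifiers, so the intervals may be too narrow where amplified copies were counted. The smallest p-value of an exact permutation test (two-sided) of 2 against 2 libraries is 0.333, and all p-values given are therefore from the model across genes. Replicates of a cell type correlated at 0.97 to 0.978 in log2 CPM across genes, and none was identical to another.

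The 10 genes and the lists of partner genes and cell type markers were chosen with earlier results of these data known. All members are reported. From each partner list at most 4 called genes per comparison are named, by size of the log2 fold change, together with every gene of a count of 5 or fewer in 1 direction. Other genes of the lists were named after their values were seen. The 3 genes closest to each called member are named. Coordinates and exon lengths are from GENCODE vM21 (GRCm38), and promoter sequences from RefSeq (GRCm38.p6), with an entry for 9 of the 10 genes. Protein sequences were not analysed here. No term was fitted for the replicate number. The correlation of deviations from the group mean between libraries of the same number was -0.23 for Naive and Th17, 0.17 for Naive and Th1 and 0.08 for Th17 and Th1, and numbers were not treated as pairs. These correlations are over all genes and do not exclude an effect of the replicate number on single genes, so the replicate block is given as an alternative. Alternatives were DESeq2, other scalings, filters and thresholds, the replicate block, a fit of only the 4 libraries compared, libraries thinned to the depth of the smallest, and leaving out each library, where the spread of the lone library of a cell type is taken from the others.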

Additional observations from a re-analysis of the deposited data

Results flagged for a closer look

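With Naive as the shared reference, the change in Th1 differed from the change in Th17 for 13 genes of the set and its partner lists, as tested directly by edgeR's comparison of Th1 with Th17 in the model of all 6 libraries. Among the checkpoint genes these were *Lag3*, by 2.56 on the log2 scale, and *Entpd1*, by 3.83. Both were higher in both Th1 libraries than in both Th17 libraries. In the partner lists the difference was positive for *Fyn* (2.02), *Adora2a* (2.61), *Nfatc1* (1.77), *Tbx21* (5.31), *Eomes* (3.70), *Tnfrsf4* (1.69) and *Tnfrsf18* (1.79). It was negative for *Tnfsf14* (-2.58), *Tox2* (-5.29), *Cd300a* (-4.50) and *Sit1* (-1.62). With 2 libraries per cell type, no group was large enough to ask whether 1 library stood apart.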

How the results depend on the processing

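Of 504 values of the 10 genes under the alternatives named in the processing, 474 kept their side of the threshold, 25 passed it that had not, 5 lost it and 0 called values changed sign. *Ctla4* in both comparisons with Naive, *Entpd1* in both of Th1 and *Cd160* in Th1 against Naive stayed past the threshold in all of them. In Th17 against Naive, 1 gene was called, 3 with DESeq2, with no filter on low counts, with the replicate block in DESeq2 or at an adjusted p-value under 0.05 (*Havcr2* and *Cd160* added), and 2 with the replicate block in edgeR or with only the 4 libraries compared (*Havcr2* added). Leaving out each library gave 1. In Th1 against Naive, 4 were called and the alternatives gave 3 to 5. The 5 came with DESeq2, with no filter, with the replicate block in DESeq2 or at an adjusted p-value under 0.05 (*Cd200* added). Library size as the only scaling gave 3 (*Lag3* lost). In Th1 against Th17, 2 were called, 4 with DESeq2, with no filter, with the replicate block in edgeR or DESeq2 or at an adjusted p-value under 0.05 (*Cd160* and *Cd200* added), 3 with library size as the only scaling (*Cd200* added), and 1 to 2 when each library was left out (*Lag3* lost without Th17 replicate 2). The replicate block took 1035 genes past the threshold in Th17 against Naive, 1402 in Th1 against Naive and 1041 in Th1 against Th17, compared with 739, 1014 and 752 without it. With the Naive numbers crossed, added after seeing the data, the counts of these genes were 376, 542 and 343, and 1, 3 and 1 members were called. DESeq2 called 1741, 1935 and 1829 genes, no filter 2154, 2259 and 2232, and at least 10 counts in every library 369, 714 and 442, where *Havcr2* and *Cd244* were not tested. An adjusted p-value under 0.05 gave 2063, 2164 and 2112. Leaving out a library gave 319 to 887, 516 to 939 and 266 to 1016. Partner genes called numbered 16, 20 and 11, with a range of 9 to 29, 12 to 32 and 5 to 22 over all settings, and 25 of the 47 partner calls were kept without each library in turn. With library size as the only scaling, the median log2 fold change of all genes moved by -0.25 in Th1 against Naive and -0.21 in Th1 against Th17, and no member that was called changed direction relative to it. Values near 0 that were not called, of *Btla*, *Tigit* and *Cd200* and of *Ctla4* between Th1 and Th17, changed sign under some alternatives. The cause of these changes was not tested. Fewer libraries did not always give fewer calls, since the fit of only the 4 libraries compared called 1013, 760 and 1022 genes in the 3 comparisons. The fewest counts were those of *Havcr2*, *Cd244* and, in Th1, *Cd160*.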
